A study of Mus musculus with 21 samples.

Results

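The genes described here encode the integrins of macrophages and the proteins that couple integrins to actin in focal adhesions and podosomes. They were taken from a list of 45 symbols, and all 45 were found among the 25067 genes of the deposited RNA-seq table, each represented by its transcript with the highest mean count. The list holds 8 integrin alpha chains, 4 integrin beta chains, 6 genes of integrin activation, 10 adhesion plaque and LIM-domain genes, 5 genes of the ILK-PINCH-parvin complex and its binding partner, 9 adhesion kinases and adaptors and 3 podosome scaffolds. All 45 passed the filter on low counts and were tested among 12529 genes.

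An integrin is a pair of one alpha and one beta chain that spans the plasma membrane, binds extracellular matrix or a counter-receptor outside the cell, and is linked to actin inside it. Talin and kindlin bind the beta tail and switch the integrin to its high-affinity form, the small GTPase Rap1 recruits talin, and vinculin, paxillin, zyxin and tensins build the plaque on the cytoplasmic side. Macrophages attach mainly through podosomes, small actin columns ringed by integrins and plaque proteins whose assembly depends on Src-family kinases and Tks scaffolds and which carry out matrix degradation.

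The RNA came from bone marrow-derived macrophages, cells grown from marrow of male C57Bl6/J mice aged 6 to 12 weeks for 7 days in medium with 15% L929-conditioned medium, a source of macrophage colony-stimulating factor. Cells of wild-type (WT) mice and of mice labelled Nur77-KO were lysed before stimulation (0 h) or 4 h and 18 h after 100 ng/ml lipopolysaccharide (LPS), the bacterial ligand of Toll-like receptor 4. Each of the 3 WT groups had 4 libraries, numbered 1 to 4, and each of the 3 labelled-KO groups had 3, numbered 2 to 4. The titles name Nur77, the nuclear receptor encoded by Nr4a1, while the genotype field of the labelled-KO libraries reads cre; the type of the knockout allele and any Cre driver were not given in the sources used here. The design compares the genotypes at each time and the times within each genotype.

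Totals over genes were 12301504 to 29650081 counts per library. Nr4a1, the targeted gene, was at 13.4, 16.2, 15.2 and 14.0 CPM (counts scaled to the library total times its TMM factor) in WT and 12.4, 12.2 and 12.4 CPM in the other genotype at 0 h, at 7.25, 2.16, 1.74 and 1.30 CPM and 0.531, 0.869 and 1.21 CPM at 4 h and at 1.04, 1.33, 0.965 and 1.08 CPM and 2.96, 2.1 and 3.48 CPM at 18 h. Its transcript was thus a little below the WT range at 0 h, below it at 4 h and above it at 18 h. Because it stayed close to the WT level at 0 h and exceeded it at 18 h, the second genotype is called labelled KO throughout. Where the allele interrupts the gene was not given in the sources used here. All 10 macrophage markers were at a mean of at least 1 CPM in every group. The summed CPM of 20 stromal markers (collagens, Pdgfra, Pdgfrb and others) was 7.08 to 175 in WT at 0 h and 176 to 304 in labelled KO, and 32.5 to 91.8 against 69.7, 255 and 1060 at 18 h. The WT libraries numbered 1 at 0 h and at 4 h stood apart from the other WT libraries of their time in counts across genes. In bulk RNA, fewer cells of a type and less RNA per cell cannot be told apart. Whether equal numbers mark the same mouse is not said in the labels, and the p-values below therefore reflect variation among libraries that may be technical.

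Upstream windows of the members were read from RefSeq (GRCm38.p6, the mm10 assembly), each 250 bases before to 50 bases after an annotated start, on the gene's strand; 36 of 45 members matched, with 43 windows. The response element of Nur77-type receptors, AAAGGTCA on either strand, was in 0 of these 36 members, against 1.7% of 27025 genes. The AP-1 letters TGANTCA were in 3 members (8.33%, against 8.97% of all genes), namely Itga9, Itgax and Zyx, the CRE letters TGACGTCA in 2 (5.56% against 2.03%), Crkl and Rap1b, and the PU.1 letters GAGGAAGT in 5 (13.9% against 3.69%), Apbb1ip, Itgav, Itgb7, Lims1 and Parvg. The NF-kB motif was in Ilk and Pdlim5 (5.56% against 5.14%) and the CArG box of serum response factor in Rsu1 and Vcl (5.56% against 1.81%). All motifs were searched on both strands. A match on the opposite strand appears as its reverse complement, such as ACTTCCTC for PU.1 in Itgav. Where 2 motifs shared letters each was counted on its own. A match describes letters only and is not a measured binding site. The windows of 3 members with a match are shown as examples, with the matching letters in capitals. Each of these members responded to LPS and was called between the genotypes. Members not shown did so too, such as Parvg, with the PU.1 letters, and Src, with none of these motifs. The windows are PU.1 in Itgav at chr2:83724147-83724446 (plus strand), AP-1 in Itgax at chr7:128129300-128129599 (plus strand) and AP-1 in Zyx at chr6:42349578-42349877 (plus strand).
Itgav: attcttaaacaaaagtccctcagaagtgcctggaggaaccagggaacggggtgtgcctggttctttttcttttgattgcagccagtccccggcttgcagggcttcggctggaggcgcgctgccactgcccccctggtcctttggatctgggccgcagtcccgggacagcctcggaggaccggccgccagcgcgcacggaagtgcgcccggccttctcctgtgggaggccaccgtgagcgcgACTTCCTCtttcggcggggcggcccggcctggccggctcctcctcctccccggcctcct
Itgax: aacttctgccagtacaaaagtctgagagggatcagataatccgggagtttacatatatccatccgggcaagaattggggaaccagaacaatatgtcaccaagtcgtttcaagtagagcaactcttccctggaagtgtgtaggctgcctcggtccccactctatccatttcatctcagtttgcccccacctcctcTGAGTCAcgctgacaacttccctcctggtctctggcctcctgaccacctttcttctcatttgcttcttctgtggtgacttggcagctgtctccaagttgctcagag
Zyx: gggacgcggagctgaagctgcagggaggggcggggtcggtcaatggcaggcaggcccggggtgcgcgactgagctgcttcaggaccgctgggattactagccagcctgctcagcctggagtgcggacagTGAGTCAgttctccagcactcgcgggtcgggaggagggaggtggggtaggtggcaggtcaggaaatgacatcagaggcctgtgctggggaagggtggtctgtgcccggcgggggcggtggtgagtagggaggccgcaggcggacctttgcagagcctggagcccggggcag

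LPS changed most of these genes in WT macrophages, and more of the called members rose than fell. At 4 h, 25 members rose and 11 fell against 0 h (36 of 45 called, or 80%, near the 78.1% of all genes tested, of which 35.2% rose and 43.0% fell; edgeR's quasi-likelihood test, Benjamini-Hochberg adjusted p under 0.05). At 18 h, 26 rose and 13 fell (39 of 45, beside 71.1% of all genes, 34.8% higher and 36.3% lower). The median log2 fold change of the members was 0.40 at 4 h and 0.63 at 18 h, beside -0.17 and -0.05 for all genes tested. The libraries of the groups did not overlap for 32 members at 4 h and 38 at 18 h (71.5% and 66.4% of all genes). With upper-quartile factors in place of TMM, the median of all genes at 4 h moved to -0.52 and the split of the members to 18 higher and 17 lower, and Pxn, called higher, changed sign (0.32 to -0.03); these factors shifted all genes downwards together. Lists of other cells moved at 4 h too: 6 of 10 neutrophil markers rose (summed 35.0 to 53.1 CPM at 0 h and 109.9 to 163 CPM at 4 h, Elane, Mpo and Ctsg at 0 at 4 h), 5 of 8 dendritic cell markers rose (9.29 to 10.9 CPM and 19.9 to 24.0 CPM) and 3 of 17 stromal markers rose, with Fbln1 at 0. At 18 h, 3 neutrophil markers rose and 1 fell (196 to 282 CPM, with Elane, Mpo, Prtn3, Ctsg and Retnlg at 0), 3 dendritic cell markers rose and 2 fell, 3 stromal markers rose, 3 of 10 macrophage markers rose and 7 fell (summed 19340.0 to 20160.0 CPM at 0 h and 11680.0 to 13250.0 CPM at 18 h), and 19 of 20 cell cycle genes fell (400 to 531 CPM and 267 to 315 CPM). At 4 h most cell cycle genes fell as well, such as Cenpf (-3.43) and Kif11 (-2.82), though their summed level was 477 to 527 CPM. Mki67 (1.37), Pcna (0.72) and Tyms (0.62) rose at that time. The part of these lists in the members' changes was not tested.

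**Figure D1:**
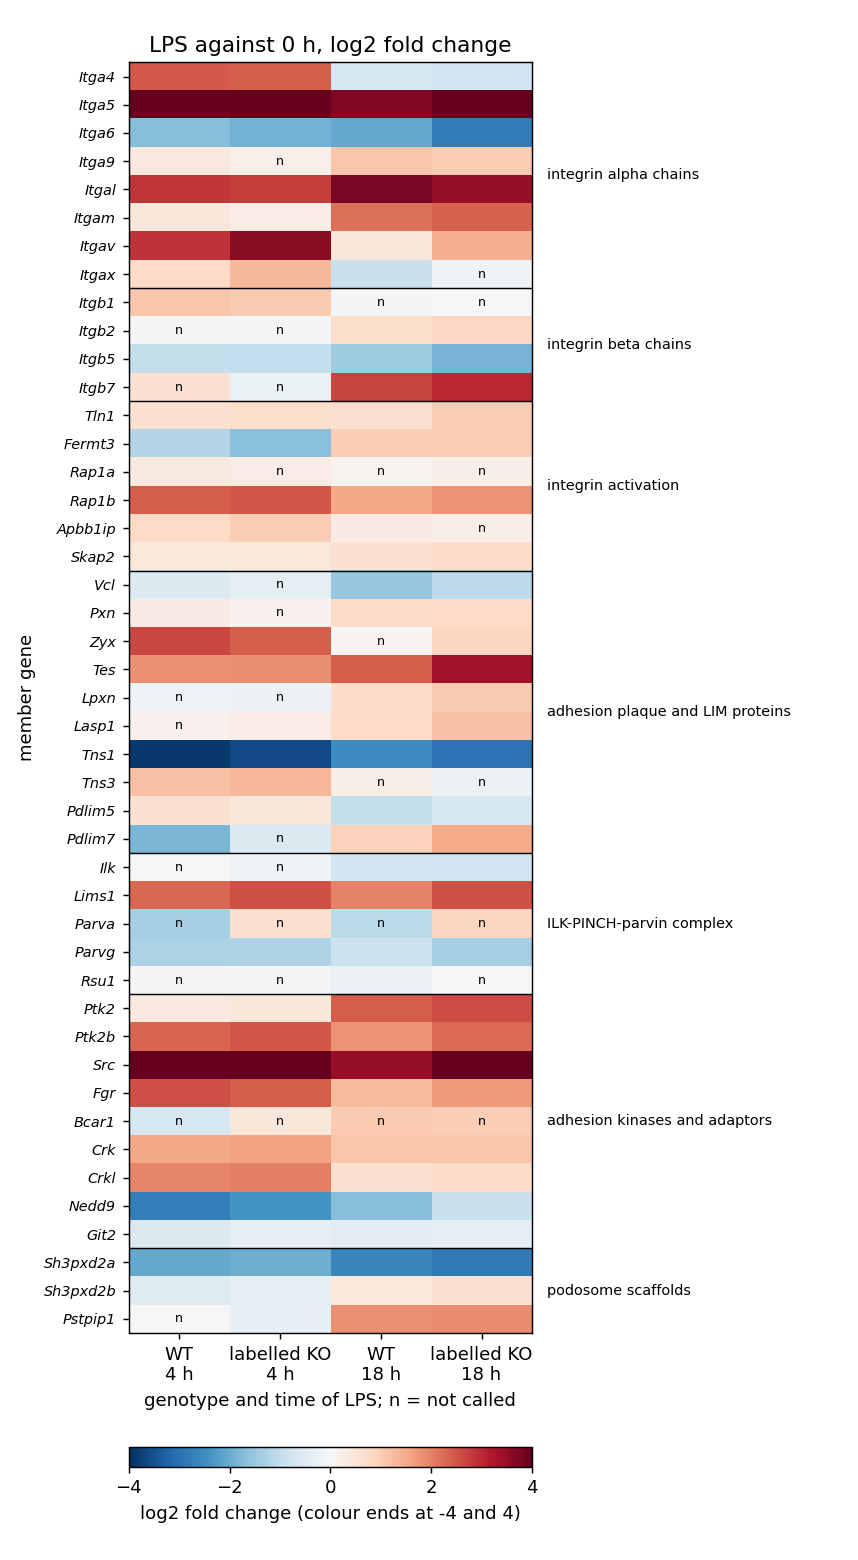
Log2 fold change of each of the 45 members (rows, grouped by role) at 4 h and 18 h of LPS against 0 h of the same genotype (columns; WT n = 4, labelled KO n = 3 libraries per time). Red is higher and blue lower than at 0 h, colour ends at -4 and 4, and n marks a member not called; the colours of the paired columns are alike for most members, with Src and Itga5 darkest red and Tns1 darkest blue at 4 h.

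All 8 integrin alpha chains were called in WT cells at 4 h, 7 upwards and 1 downwards (beside 78.1% of all genes, 35.2% higher and 43.0% lower). Itga5, the fibronectin receptor chain, was at 46.1, 49.8, 49.3 and 59.8 CPM at 0 h, 696, 833, 904 and 908 CPM at 4 h and 697, 683, 606 and 710.1 CPM at 18 h. Neither LPS group overlapped the unstimulated libraries. Its log2 fold change was 4.03 ± 0.10 (SE) at 4 h (edgeR, adjusted p = 7.4e-19) and 3.72 ± 0.10 (SE) at 18 h (adjusted p = 1.4e-17). Its 2 deposited transcripts had nearly equal counts, with a ratio of second to first of 0.985, and only the first was used.

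Itgav pairs with several beta chains into vitronectin-type receptors. It was at 83.8, 94.6, 93.8 and 75.6 CPM at 0 h, 513, 679, 754 and 619 CPM at 4 h and 108, 120.1, 129 and 125 CPM at 18 h. The response was a peak at 4 h, by 2.88 ± 0.13 (SE) on the log2 scale (edgeR, adjusted p = 9.4e-15), that had come most of the way down by 18 h, when it was 0.47 ± 0.12 (SE) (adjusted p = 0.0017). Itga4, the alpha chain of the VCAM-1 receptor VLA-4, also peaked, from 542, 487, 446 and 325 CPM to 2271, 2518, 2766 and 2199 CPM at 4 h, and was at 253, 309, 308 and 251 CPM at 18 h. It thus rose by 2.44 ± 0.15 (SE) at 4 h and ended below its start, at -0.68 ± 0.14 (SE) (edgeR, adjusted p = 0.00017), with all 4 libraries of 18 h below those of 0 h.

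The alpha chains of the beta-2 integrins, which leukocytes use for firm adhesion and phagocytosis, had different courses. Itgal, the LFA-1 chain, was at 36.9, 38.9, 40.4 and 34.2 CPM at 0 h, 500.4, 192, 202 and 196 CPM at 4 h and 598, 538, 420.1 and 506 CPM at 18 h. The value of 500 CPM belongs to WT library 1, which lay far above the other 3 libraries of 4 h. The rise was 2.86 ± 0.23 (SE) at 4 h, or 2.38 without that library, and 3.78 ± 0.24 (SE) at 18 h (edgeR, adjusted p = 2.7e-10 and 7.7e-12). Itgam, the Mac-1 or CD11b chain, was at 477, 520.5, 499 and 473 CPM, 876, 621, 641 and 584 CPM and 2212, 2207, 2258 and 2329 CPM at 0 h, 4 h and 18 h, again with library 1 highest at 4 h. The later change was the larger one, 2.19 ± 0.10 (SE) at 18 h against 0.47 ± 0.10 (SE) at 4 h. Itgax, the CD11c chain shared with dendritic cells, rose by 0.79 ± 0.20 (SE) at 4 h and fell by 0.89 ± 0.22 (SE) at 18 h, from 8.36 to 14.4 CPM at 0 h to 12.9 to 25.7 CPM and then 4.70 to 7.36 CPM; its libraries at 0 h and 4 h overlapped.

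Itga6, a laminin receptor chain, was the alpha chain that fell at 4 h. It was at 264, 289.7, 321 and 272 CPM at 0 h, 81.2, 83.4, 94.1 and 93.3 CPM at 4 h and 67.3, 65.7, 75.1 and 68.9 CPM at 18 h, with neither later group overlapping the first. The log2 fold changes were -1.70 ± 0.08 (SE) and -2.05 ± 0.08 (SE) (edgeR, adjusted p = 2.1e-14 and 3e-15). Itga9, a receptor chain for tenascin and osteopontin, rose by 0.40 at 4 h and 1.09 at 18 h. Under upper-quartile factors Itga9, Itgam and Itgax were no longer called at 4 h.

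The order of the alpha chains changed with time. Per kilobase of the counted transcript, the mean level at 0 h was highest for Itgam (105 CPM per kb), followed by Itga6 (66.5), Itga4 (46.1), Itgav (12.3), Itga5 (11.7), Itgal (7.20), Itga9 (5.53) and Itgax (2.87). The ranges of Itgav and Itga5 overlapped, and those of the other neighbours did not. At 4 h Itga4 (249.7 CPM per kb) and Itga5 (191) came first, with Itgam at 145, a level whose range overlapped that of Itga5. At 18 h the order was led by Itgam (481), Itga5 (154) and Itgal (98.7), 3 chains whose ranges did not overlap. These orders rest on 1 transcript per gene, while Itgal had 4 deposited transcripts, Itgam and Itga5 2 each and Itga4 1. How reads were divided among transcripts was not given, so the order between genes is uncertain.

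**Figure D2:**
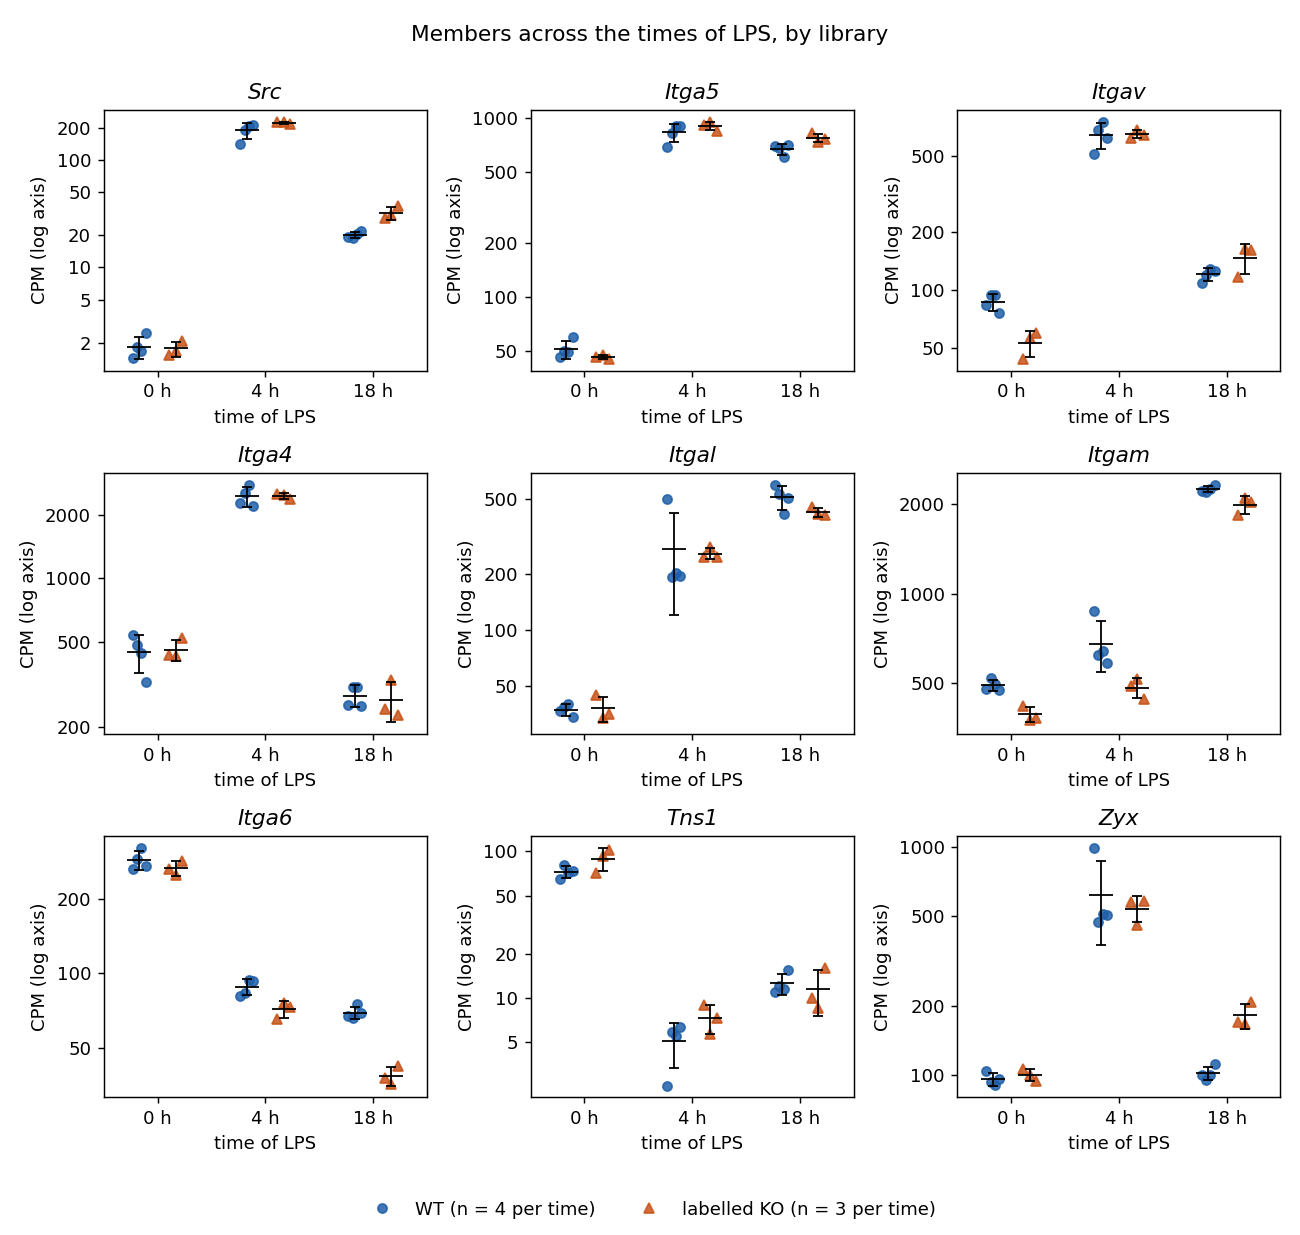
CPM (log axis) of 9 members by time of LPS, 1 point per library, WT in blue circles (n = 4) and labelled KO in orange triangles (n = 3); the black bar is the mean ± SD. Src, Itga5, Itgav, Itga4 and Zyx are far above 0 h at 4 h, Itgam and Itgal are highest at 18 h apart from WT library 1 of Itgal at 4 h, and Itga6 and Tns1 are below 0 h at both times.

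Of the 4 beta chains, Itgb1, the partner of most matrix-binding alpha chains, was at 752, 718, 676 and 658 CPM at 0 h, 1543, 1474, 1555 and 1434 CPM at 4 h and 687, 653, 654 and 640.5 CPM at 18 h. It rose by 1.10 ± 0.09 (SE) at 4 h and was not called at 18 h (-0.09 ± 0.09 (SE)). Itgb2, the partner of Itgal, Itgam and Itgax, was not called at 4 h (0.05) and rose by 0.71 ± 0.06 (SE) at 18 h. Per kilobase, Itgb1 and Itgb2 stood at 184 and 166 CPM per kb at 0 h, with overlapping ranges, at 394 and 171 at 4 h and at 173 and 272 at 18 h. By the 1 counted transcript of each, the leading beta chain thus was Itgb1 at 4 h and Itgb2 at 18 h. Itgb2 had 3 deposited transcripts and Itgb1 had 1. How reads were divided among transcripts was not given, so the order of the 2 genes is uncertain.

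Itgb5, which pairs with Itgav, fell at both times. It was at 255, 299.9, 340.4 and 303 CPM at 0 h, 124, 159, 172 and 169 CPM at 4 h and 106, 116, 107 and 115 CPM at 18 h, so that neither later group overlapped the first. The changes were -0.94 ± 0.10 (SE) and -1.43 ± 0.10 (SE) (edgeR, adjusted p = 1.5e-08 and 2.9e-11). Itgb7, the beta chain of gut-homing integrins, was low, with 1.20, 1.27, 0.919 and 1.22 CPM at 0 h and 2.89, 1.12, 1.65 and 1.34 CPM at 4 h, and rose to 6.59, 5.40, 7.48 and 11.1 CPM at 18 h (2.71 ± 0.29 (SE), adjusted p = 3.7e-08).

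In the activation group, 5 of 6 members rose and 1 fell at 4 h (beside 78.1% of all genes called). Rap1b, a GTPase that brings talin to integrins, was at 428 to 602 CPM at 0 h, 2260.0 to 2906 CPM at 4 h and 1289 to 1509 CPM at 18 h, with changes of 2.41 ± 0.12 (SE) and 1.54 ± 0.12 (SE). Its close relative Rap1a was called at 4 h by a small amount (0.35) and not at 18 h (0.15). The 2 transcripts are alike in their coding parts, and the labels do not record how reads were divided between such relatives, which leaves their levels uncertain. Tln1, talin itself, rose by 0.61 and 0.65, Apbb1ip, the Rap1 effector RIAM, by 0.80 and 0.32, and Skap2, an adaptor of Src-family signalling to integrins, by 0.42 and 0.60 at 4 h and 18 h. With upper-quartile factors Rap1a and Skap2 at 4 h and Apbb1ip at 18 h were not called.

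Fermt3, the kindlin of blood cells, moved in opposite directions at the 2 times. It was at 188, 185, 199 and 199 CPM at 0 h, 126, 73.7, 65.7 and 75.6 CPM at 4 h and 397, 385, 363 and 393 CPM at 18 h. Each group was clear of the others, with WT library 1 the highest of the 4 at 4 h. The changes were -1.17 ± 0.13 (SE) at 4 h, or -1.42 without that library, and 1.00 ± 0.13 (SE) at 18 h (edgeR, adjusted p = 4.4e-08 and 5.6e-07). Fermt3 overlaps Trpt1 in the annotation, and the use of strand in the counting was not recorded.

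Plaque and LIM-domain genes divided into 5 that rose, 3 that fell and 2 not called at 4 h (beside 78.1% of all genes called). Zyx, zyxin, a LIM protein recruited to adhesions under tension, was at 105, 93.0, 90.4 and 96.4 CPM at 0 h, 989, 469.5, 509 and 506 CPM at 4 h and 100.4, 95.5, 99.6 and 112 CPM at 18 h. The 4 h group lay above both others, again with library 1 far above its group, while the groups of 0 h and 18 h overlapped. Its change was 2.69 ± 0.18 (SE) at 4 h, or 2.36 without library 1, and 0.08 ± 0.17 (SE) at 18 h, which was not called (edgeR, adjusted p = 6.7e-12 and 0.67). Tes, testin, a binding partner of zyxin, did not return: it was at 14.3, 15.5, 15.2 and 15.3 CPM, 70.7, 48.4, 49.2 and 44.3 CPM and 89.0, 73.1, 78.2 and 83.0 CPM at 0 h, 4 h and 18 h. Its rises of 1.82 ± 0.12 (SE) and 2.42 ± 0.12 (SE) had adjusted p = 6.3e-12 and 9.6e-14 by edgeR.

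The tensins, which tie integrin tails to actin, went opposite ways at 4 h. Tns1 was at 65.0, 81.4, 71.0 and 73.9 CPM at 0 h, 2.52, 5.81, 5.48 and 6.36 CPM at 4 h and 11, 12.1, 11.6 and 15.6 CPM at 18 h. Its fall at 4 h, -3.85 ± 0.22 (SE), was the deepest of the members, and at 18 h the change was -2.53 ± 0.19 (SE) (edgeR, adjusted p = 5.2e-13 and 1.6e-10). Tns3 rose by 1.16 ± 0.12 (SE) at 4 h and was not called at 18 h (0.26).

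Vcl, vinculin, which bears force between talin and actin, was at 34.0, 43.8, 32.4 and 38.0 CPM at 0 h, 32.5, 24.3, 19.1 and 24.2 CPM at 4 h and 14.8, 13.5, 10.5 and 12.5 CPM at 18 h. The groups of 0 h and 4 h overlapped, and the group of 18 h lay below both. Its change at 18 h was -1.52 ± 0.23 (SE) (edgeR, adjusted p = 5.1e-06), and the call at 4 h (-0.56 ± 0.22 (SE), adjusted p = 0.027) was lost with DESeq2, with median-of-ratios factors, without WT library 2 of 0 h and without WT library 2, 3 or 4 of 4 h (-0.90 to -0.45 over all alternatives). The scaffold paxillin, Pxn, rose by 0.78 at 18 h, its leukocyte relative Lpxn by 0.75 and the actin-binding LIM protein Lasp1 by 0.80. Lasp1 was not called at 4 h (0.16), but was called (0.20) when the replicate number entered the fit as a block. Of the PDZ-LIM genes, Pdlim5 rose by 0.60 at 4 h and was lower than at 0 h by 18 h (-0.96), and Pdlim7 had at most 2.25 CPM in any WT library.

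In the ILK-PINCH-parvin complex, which links beta tails to actin, Lims1 (PINCH1) was the 1 of 5 members that rose. It was at 122, 110.4, 116 and 102 CPM at 0 h, 559, 561, 610.0 and 479.9 CPM at 4 h and 435, 445, 489.6 and 425 CPM at 18 h, changes of 2.30 ± 0.10 (SE) and 2.00 ± 0.10 (SE). Ilk, the pseudokinase at its centre, was not called at 4 h (0.01) and fell by 0.78 ± 0.07 (SE) at 18 h, and Rsu1, which binds PINCH1, had 0.04 and -0.24. Parvg, the parvin of blood cells, was at 65.2, 65.0, 63.0 and 64.0 CPM at 0 h, 28.9, 25.1, 23.8 and 28.4 CPM at 4 h and 30.5, 39.4, 34.4 and 38.3 CPM at 18 h. It fell at both times with no overlap, with changes of -1.27 ± 0.09 (SE) and -0.85 ± 0.08 (SE) (edgeR, adjusted p = 1.1e-11 and 9.7e-09). Parva, the parvin of non-blood cells, was at 0.16, 1.63, 0 and 0.0937 CPM at 0 h in WT and was not called at either time.

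Src, the kinase that phosphorylates paxillin, p130Cas and other adhesion proteins, had the largest rise of the members. It was at 1.44, 1.81, 1.66 and 2.44 CPM at 0 h, 141, 189, 208 and 213 CPM at 4 h and 19.2, 18.9, 20.3 and 22.0 CPM at 18 h. The 3 groups were far apart, with every library of 4 h above every library of 18 h. The changes were 6.70 ± 0.16 (SE) at 4 h and 3.48 ± 0.15 (SE) at 18 h (edgeR, adjusted p = 2.5e-19 and 1.6e-14). Fgr, a Src-family kinase of myeloid cells, was at 1.46, 1.99, 2.01 and 1.83 CPM at 0 h, 18.5, 8.34, 6.49 and 9.89 CPM at 4 h and 4.09, 4.69, 4.34 and 4.42 CPM at 18 h. Library 1 was again the highest at 4 h, and the rise of 2.59 ± 0.24 (SE) was 2.20 without it.

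The 2 focal adhesion kinases had different courses. Ptk2b, the kinase Pyk2, was at 145, 163, 159 and 168 CPM at 0 h, 725, 784, 863 and 813 CPM at 4 h and 556, 569, 560.5 and 533 CPM at 18 h, with rises of 2.33 ± 0.07 (SE) and 1.81 ± 0.07 (SE). Ptk2, the kinase FAK, was at 3.56, 5.14, 4.95 and 3.79 CPM at 0 h, 6.02, 4.50, 5.03 and 6.63 CPM at 4 h and 24.4, 22.5, 21.3 and 24.7 CPM at 18 h. Its groups of 0 h and 4 h overlapped, and its larger rise came at 18 h, 2.42 ± 0.13 (SE) (edgeR, adjusted p = 6.4e-13). The call of Ptk2 at 4 h (0.38) was lost with the replicate block (0.42), with upper-quartile factors, on the compared groups only and without WT library 1 or 4 of either time (0.03 to 0.55 over all alternatives).

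Among the adaptors, Crk and Crkl, SH2-SH3 proteins that read phosphorylated paxillin and p130Cas, rose by 1.50 and 1.97 at 4 h and by 1.10 and 0.63 at 18 h. Nedd9, a relative of p130Cas, was at 14.5, 15.5, 14.4 and 10.7 CPM at 0 h, 2.03, 2.53, 1.83 and 1.97 CPM at 4 h and 2.75, 5.28, 4.34 and 4.30 CPM at 18 h. Both later groups lay below the first, with changes of -2.73 ± 0.18 (SE) and -1.71 ± 0.16 (SE) (edgeR, adjusted p = 8.4e-12 and 5.1e-09). Git2, an Arf GTPase-activating adaptor of paxillin, fell as well (-0.57 and -0.46). Bcar1, p130Cas itself, stayed under 1 CPM in every WT library and was not called.

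The 3 podosome scaffolds did not share a course. Sh3pxd2a (Tks5), the scaffold that Src phosphorylates in podosomes, was at 44.7, 61.0, 53.4 and 47.3 CPM at 0 h, 10.3, 14.0, 14.5 and 11.4 CPM at 4 h and 6.96, 8.68, 9.09 and 8.95 CPM at 18 h. It fell without overlap, with changes of -2.06 ± 0.15 (SE) and -2.62 ± 0.16 (SE) (edgeR, adjusted p = 6.4e-11 and 2.7e-12). Its relative Sh3pxd2b (Tks4) had -0.52 at 4 h and 0.41 at 18 h. Pstpip1, an F-BAR protein that binds WASP in podosomes, was not called at 4 h (0.02) and rose from 40.3 to 52.1 CPM to 154 to 161 CPM at 18 h (1.83).

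Between 4 h and 18 h, 19 members rose and 22 fell in WT cells (41 of 45 called, beside 71.7% of all genes, 37.2% higher and 34.5% lower), and 37 did not overlap (beside 65.1%). Read over both intervals, 16 members were raised at 4 h and lower at 18 h than at 4 h (35.6%, beside 23.2% of all genes): Itga4, Itga5, Itgav, Itgax, Itgb1, Rap1b, Apbb1ip, Zyx, Tns3, Pdlim5, Lims1, Ptk2b, Src, Fgr, Crk and Crkl. Of these, 10 were still above 0 h at 18 h, and Itga4, Itgax and Pdlim5 were below it. Another 9 were raised at 4 h and not lower at 18 h (20%, beside 11.9%), among them Itgal, Itgam and Tes, and 5 were raised at 18 h and not at 4 h (11.1%, beside 5.51%), which were Itgb2, Itgb7, Lpxn, Lasp1 and Pstpip1. The 8 members lowered at both times (17.8%, beside 26.3%) were Itga6, Itgb5, Vcl, Tns1, Parvg, Nedd9, Git2 and Sh3pxd2a. Fermt3, Pdlim7 and Sh3pxd2b were lowered at 4 h and raised at 18 h (6.67%, beside 5.04%), Ilk and Rsu1 were lowered at 1 of the times (4.44%, beside 17.9%), and Parva and Bcar1 were called at neither (4.44%, beside 10.0%).

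The labelled-KO macrophages, which share no library with the WT series, had the same direction in every member called in both genotypes. At 4 h, 23 members rose and 10 fell (33 of 45, beside 75.0% of all genes, 33.5% higher and 41.5% lower), and at 18 h, 26 rose and 11 fell (37 of 45, beside 73.0%, 34.5% higher and 38.5% lower). Of the rises at 4 h, 22 were called in both genotypes (of 25 in WT and 23 in labelled KO), and of the falls, 9 (of 11 and 10). At 18 h these counts were 25 (of 26 and 26) and 11 (of 13 and 11). Shared calls and directions were not counted over all genes, most of which were called in each genotype. Whether this sharing is particular to the members is therefore not known. Between 4 h and 18 h, 18 rose and 19 fell (37 of 45, beside 65.4%, 33.3% higher and 32.1% lower). The groups did not overlap for 35 members at 4 h, 37 at 18 h and 36 between the LPS times (beside 79.1%, 74.4% and 66.9% of all genes). By course, 14 members were raised at 4 h and lower at 18 h (beside 19.2% of all genes), 9 were raised at 4 h and not lower at 18 h (beside 14.3%), 6 were raised at 18 h and not at 4 h (beside 6.23%) and 7 were lowered at both times (beside 27.6%). Of the rest, 3 were lowered and then raised (beside 4.3%), 2 were lowered at 1 time (beside 17.3%) and 4 were called at neither (beside 11.1%). Under upper-quartile factors the split at 4 h was 18 higher and 15 lower, and the sign of Itgam and Lasp1, called higher, changed, with the median of all genes at -0.47 in place of -0.14.

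Src went from 1.53, 1.68 and 2.07 CPM to 223, 227 and 215 CPM at 4 h and 28.7, 30.8 and 37.0 CPM at 18 h in labelled KO, changes of 6.95 and 4.17. Itga5 went from 46.3, 47.7 and 45.3 CPM to 923, 954 and 852 CPM and 825, 741 and 770.3 CPM (4.29 and 4.07). Tns1 had -3.61 and -2.94, Sh3pxd2a -1.95 and -2.83, and Fermt3 -1.66 and 0.98, so the reversal of Fermt3 between the times was seen here as well.

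Before LPS, 2 members differed between the genotypes, both lower in labelled KO (2 of 45, beside 3.98% of all genes, 1.11% higher and 2.87% lower). Itgav was at 83.8, 94.6, 93.8 and 75.6 CPM in WT and 43.9, 56.1 and 59.5 CPM in labelled KO, groups that did not overlap. The difference was -0.71 ± 0.14 (SE) (edgeR, adjusted p = 0.0026). Tes was at 14.3, 15.5, 15.2 and 15.3 CPM in WT and 9.31, 11.1 and 10.7 CPM in labelled KO, also without overlap (-0.54 ± 0.14 (SE), adjusted p = 0.025). Neither call held under every alternative. The call of Tes was lost without labelled-KO library 2 (-0.47) or 4 (-0.55) and without the highest stromal library of each group, and 6 members had groups that did not overlap (beside 17.7% of all genes). At this time cell cycle genes were lower in labelled KO (16 of 20 called, summed level 400 to 531 CPM in WT and 272 to 294 CPM in labelled KO) and neutrophil markers higher (8 of 10 tested, 35.0 to 53.1 CPM and 85.7 to 144 CPM, with none of the defining markers at 0); their part in the result was not tested.

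At 4 h, 8 members were called, 3 higher and 5 lower in labelled KO (beside 5.56% of all genes, 2.87% higher and 2.7% lower), and none of the 8 held under every alternative. Itgam was at 876, 621, 641 and 584 CPM in WT and 491, 516 and 441 CPM in labelled KO (-0.50 ± 0.11 (SE), adjusted p = 0.0094 by edgeR). Its partner Itgb2 was at 520.1, 489.7, 492 and 530.4 CPM and 453, 410.1 and 429.7 CPM (-0.24 ± 0.07 (SE), adjusted p = 0.039). Neither pair of groups overlapped.

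Fermt3 was at 126, 73.7, 65.7 and 75.6 CPM in WT and 64.6, 55.6 and 59.3 CPM in labelled KO (-0.51 ± 0.15 (SE), adjusted p = 0.042), a gap that was -0.26 without WT library 1. Tes was at 70.7, 48.4, 49.2 and 44.3 CPM and 32.8, 39.3 and 39.6 CPM (-0.51 ± 0.13 (SE), adjusted p = 0.022), and Pstpip1 at 58.0, 43.8, 41.0 and 38.5 CPM and 35.6, 32.8 and 32.2 CPM (-0.44 ± 0.13 (SE), adjusted p = 0.048). These 3 were lower in each labelled-KO library than in any WT library, and in all 13 members had groups that did not overlap at 4 h (beside 17.7% of all genes).

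Among the 3 higher members, Git2 was at 45.4, 54.9, 53.6 and 48.2 CPM in WT and 63.8, 55.4 and 61.6 CPM in labelled KO (0.26 ± 0.07 (SE), adjusted p = 0.033). Itgax was at 12.9, 23.8, 17.8 and 25.7 CPM and 33.2, 45.7 and 24.5 CPM (0.77 ± 0.22 (SE), adjusted p = 0.042), with overlapping groups. Pdlim7 was at 0.0614, 0.469, 0.274 and 0.313 CPM and 0.319, 0.869 and 1.66 CPM (1.90 ± 0.53 (SE), adjusted p = 0.037), low values that also overlapped. With median-of-ratios factors 3 members were higher and 3 lower. Of the members with groups apart, Itgam lost its call only without labelled-KO library 4 (-0.44) among the fits that left out 1 library, and Tes without labelled-KO library 2 (-0.43) or 4 (-0.56). Fermt3 lost it without any one of the labelled-KO libraries (-0.57 to -0.47). Itgb2, Pstpip1, Git2, Itgax and Pdlim7 each lost it without any of 4 to 6 single libraries, with values between -0.28 and -0.21, -0.48 and -0.29, 0.21 and 0.24, 0.51 and 0.79, and 1.12 and 2.04 respectively. The count was 5 without WT library 1, 5 without WT library 3, and 2, 3 and 1 without labelled-KO library 2, 3 and 4. Without WT library 1, Itgal, whose difference was -0.09 with all libraries, was called higher in labelled KO (0.39). Without the highest stromal library of each group 0 members were called. That fit also has fewer libraries in every group, and the part of each in the loss was not tested. Of the 20 stromal markers, 0 of the 17 tested were called at 4 h, while their summed level was 32.4 to 114 CPM in WT and 64.0, 168 and 720.0 CPM in labelled KO. Cell cycle genes had 6 of 20 called lower in labelled KO at 4 h (477 to 527 CPM in WT and 505 to 553 CPM in labelled KO), and neutrophil markers 1 of 10 called higher (109.9 to 163 CPM and 161 to 217 CPM, with Elane and Ctsg at 0 in both and Mpo at 0 in WT); their part in the result was not tested.

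At 18 h, 13 members differed, 9 higher and 4 lower in labelled KO (beside 32.2% of all genes, 16.5% higher and 15.7% lower, so the share of members, 28.9%, was near the background). The libraries did not overlap for 18 members (beside 35.8% of all genes). Median-of-ratios factors gave 12 higher and 2 lower. The calls of 6 members, Itga6, Itgax, Zyx, Parvg, Ptk2b and Src, held under all alternatives. Stromal markers were higher in labelled KO (14 of 17 tested), with the summed levels given above and no marker at 0 in either group; neutrophil markers were too (7 of 10 tested, 196 to 282 CPM in WT and 335 to 477 CPM in labelled KO, with Elane, Mpo, Prtn3, Ctsg and Retnlg at 0 in WT and Mpo and Prtn3 at 0 in labelled KO).

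Itga6 was at 67.3, 65.7, 75.1 and 68.9 CPM in WT and 37.6, 35.7 and 42.3 CPM in labelled KO. Every labelled-KO library was far below every WT library, a difference of -0.84 ± 0.09 (SE) (edgeR, adjusted p = 9.9e-07), the smallest adjusted p among the members in this comparison. With the stromal mean as a covariate it was -0.88, and without the highest stromal library of each group -0.88. Itgax was at 4.70, 7.16, 5.55 and 7.36 CPM in WT and 12.6, 13.2 and 11.9 CPM in labelled KO (1.01 ± 0.24 (SE), adjusted p = 0.0035), without overlap. Dendritic cell markers, a list without Itgax, summed to 13.4 to 14.6 CPM in WT and 23.7 to 35.9 CPM in labelled KO (4 of 8 tested called higher, Cd209a at 0 in both); their part in the result was not tested. Itgb5 was 106 to 116 CPM in WT and 79.0 to 99.5 CPM in labelled KO (-0.31 ± 0.11 (SE)), a call lost under 8 of 18 alternatives, among them leaving out labelled-KO library 2 or 3 or WT library 2 or 4 (-0.32 to -0.22).

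Among plaque proteins, Zyx was at 100.4, 95.5, 99.6 and 112 CPM in WT and 171, 167 and 209 CPM in labelled KO. Against 0 h, Zyx was not called in WT and was higher in labelled KO (0.86), and the genotypes differed at 18 h by 0.84 ± 0.18 (SE) (edgeR, adjusted p = 0.0014), or by 0.72 without the highest stromal library of each group. Tes, lower in labelled KO at 0 h and 4 h, was higher at 18 h, with 89.0, 73.1, 78.2 and 83.0 CPM in WT and 96.3, 117 and 108 CPM in labelled KO (0.41 ± 0.12 (SE), adjusted p = 0.013). That call was lost with the stromal covariate (0.31), without the highest stromal library of each group (0.39) and without labelled-KO library 3 (0.34). Lasp1 was higher by 0.30 ± 0.08 (SE) and Tns3 was lower (-0.37 ± 0.13 (SE)). Lasp1 lost its call without labelled-KO library 4 (0.25), and Tns3 under 9 of 18 alternatives, among them leaving out labelled-KO library 2 or 4 or WT library 2, 3 or 4 (-0.39 to -0.30).

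Of the members with low counts, Parva was at 0.183, 0.235, 0.402 and 0.113 CPM in WT and 0.609, 1.93 and 6.18 CPM in labelled KO libraries 2, 3 and 4, whose stromal sums were 69.7, 255 and 1060 CPM. The difference of 3.69 ± 1.14 (SE) (edgeR, adjusted p = 0.017) was not called with the stromal covariate (-0.03) or without library 4 (2.46). Pdlim7 was at 1.46, 1.8, 2.25 and 1.98 CPM in WT and 2.70, 4.99 and 5.33 CPM in labelled KO (1.22 ± 0.34 (SE), adjusted p = 0.0099), and was not called with the covariate (0.61) or without library 4 (1.04).

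**Figure D3:**
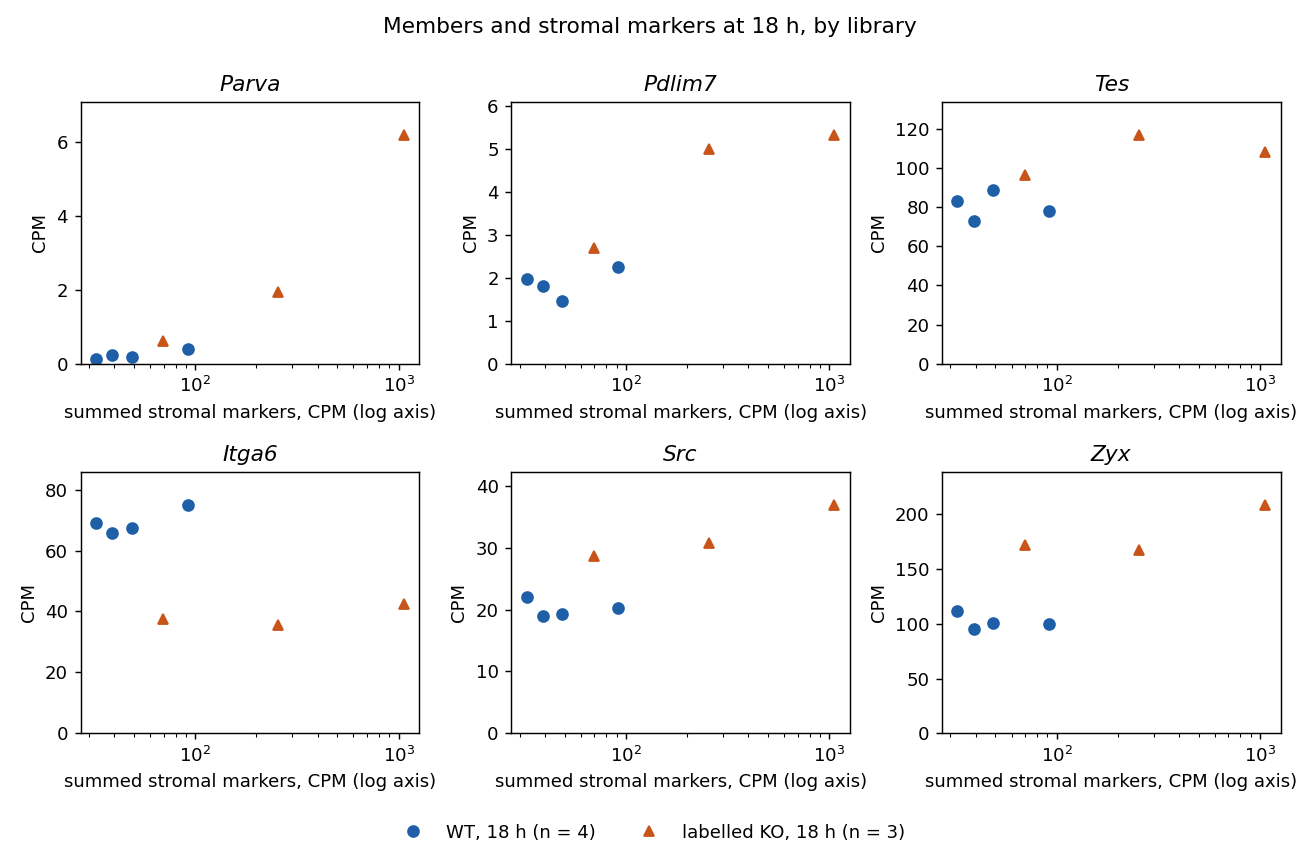
CPM of 6 members at 18 h (vertical axes from 0) against the summed CPM of the 20 stromal markers in the same library (log axis); WT in blue circles (n = 4) and labelled KO in orange triangles (n = 3). Parva, Pdlim7, Src and Zyx are highest in the labelled-KO library with the highest stromal sum, and in all 6 members the genotypes do not overlap, the labelled-KO library with a stromal sum of 69.7 CPM included.

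Parvg, in contrast to Parva, was lower in labelled KO, at 30.5, 39.4, 34.4 and 38.3 CPM in WT and 24.5, 23.3 and 25.0 CPM in labelled KO (-0.56 ± 0.10 (SE), adjusted p = 0.00021 by edgeR). Src was at 19.2, 18.9, 20.3 and 22.0 CPM in WT and 28.7, 30.8 and 37.0 CPM in labelled KO (0.68 ± 0.13 (SE), adjusted p = 0.00061). In both genes no labelled-KO library reached into the WT range. Ptk2b was at 556, 569, 560.5 and 533 CPM and 737, 653 and 709 CPM (0.33 ± 0.07 (SE), adjusted p = 0.0017). Nedd9 was at 2.75, 5.28, 4.34 and 4.30 CPM and 6.70, 6.92 and 6.40 CPM (0.66 ± 0.19 (SE), adjusted p = 0.01), a call lost with the stromal covariate (0.46). The activation genes and the podosome scaffolds, both short lists, had 0 of 6 and 0 of 3 called at this time (beside 32.2% of all genes).

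**Figure D4:**
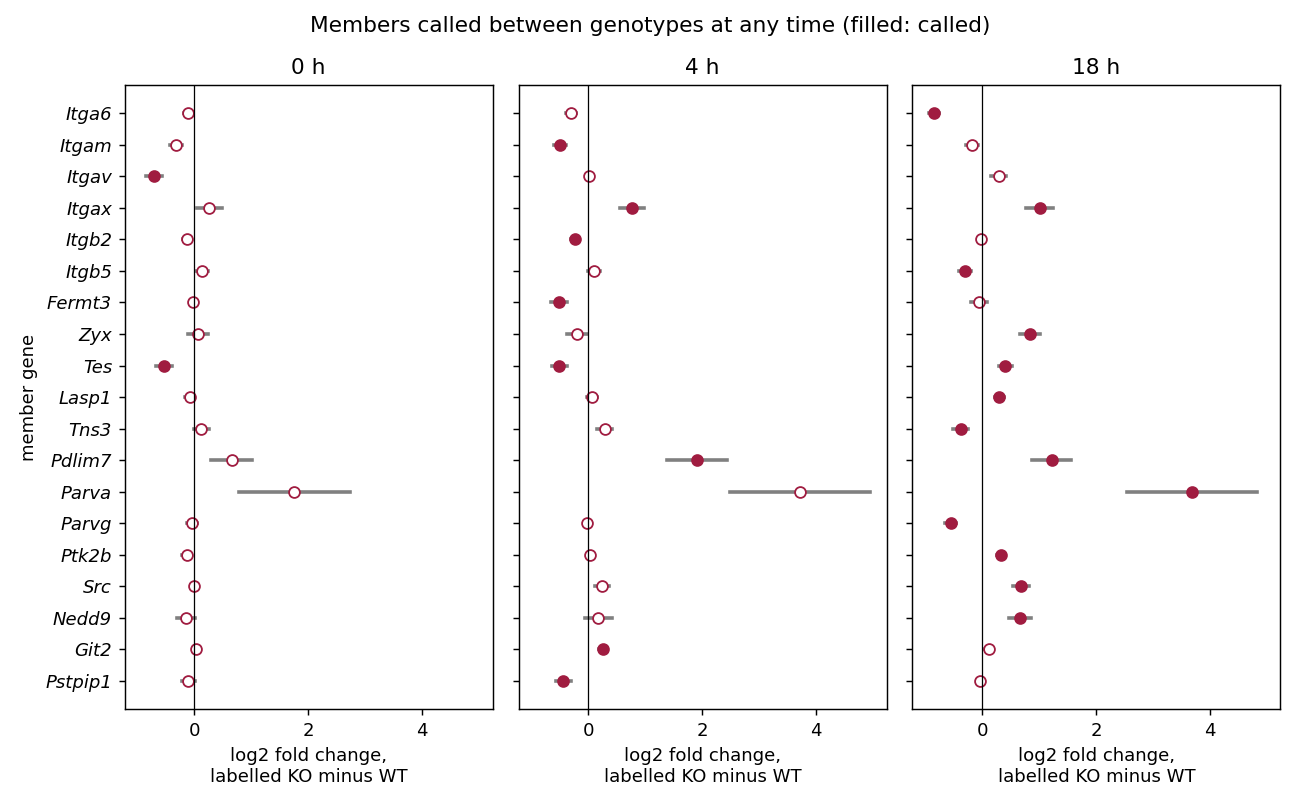
Log2 fold change of labelled KO minus WT at 0 h, 4 h and 18 h (panels) for the 19 members called at any of these times. Points are estimates, grey lines are ± SE (not drawn for the smallest estimates), and filled points were called. Filled points number 2, 8 and 13, Itgav is low at 0 h only, Tes is low at 0 h and 4 h and high at 18 h, and Parva has the widest error.

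The difference between the genotypes in the LPS response was tested as an interaction. At 4 h 0 of 45 members passed (beside 0.798% of all genes, 0.599% higher and 0.2% lower; edgeR), with 3 at an unadjusted p under 0.05, which were Itgav (0.72 ± 0.19 (SE)), Fermt3 and Git2; limma-voom called 0 and DESeq2 1. At 18 h 10 members passed, 7 with a higher and 3 with a lower response in labelled KO (beside 17.6% of all genes, 8.56% higher and 9.0% lower); with median-of-ratios factors these were 9 and 2. The calls of 4 members, Itgav, Tes, Lims1 and Itga6, held under all 25 alternatives.

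Among the called members Itgav had the largest interaction at 18 h, 1.00 ± 0.19 (SE) (edgeR, adjusted p = 0.0012). It rose by 0.47 in WT and 1.47 in labelled KO, where it went from 43.9, 56.1 and 59.5 CPM to 117, 164 and 161 CPM. At 18 h itself the genotypes did not pass (0.29), while at 0 h the difference was -0.71 ± 0.14 (SE). Tes followed with 0.94 ± 0.18 (SE) (adjusted p = 0.0013), from rises of 2.42 in WT and 3.37 in labelled KO. Lims1 rose by 2.00 and 2.55, to 435, 445, 489.6 and 425 CPM in WT and 469, 617 and 504 CPM in labelled KO, an interaction of 0.56 ± 0.14 (SE) (adjusted p = 0.011).

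Itga6 fell more in labelled KO, with -2.79 against -2.05 in WT (-0.73 ± 0.12 (SE), adjusted p = 0.00039 by edgeR). Parvg had -1.35 against -0.85 (-0.51 ± 0.13 (SE), adjusted p = 0.011) and Ptk2b rose by 2.28 against 1.81 (0.47 ± 0.10 (SE), adjusted p = 0.0041). These last 2 lost their calls only without the highest stromal library of each group. Zyx (0.78 ± 0.26 (SE), adjusted p = 0.04) and Nedd9 (0.82 ± 0.25 (SE), adjusted p = 0.027) lost their calls under 10 and 6 of 25 alternatives, Lasp1 (0.38) under 10 and Itgb5 (-0.44) under 17. Most of these left out 1 library: 9 for Zyx (0.67 to 0.82), 5 for Nedd9 (0.66 to 0.80), 6 for Lasp1 (0.34 to 0.37) and 12 for Itgb5 (-0.47 to -0.35), with labelled-KO library 2 of 0 h and WT library 1 of 18 h common to all 4 members. The interaction of Src was 0.69 ± 0.25 (SE) and was not called, but passed under 7 of 25 alternatives, among them DESeq2, median-of-ratios factors, summed transcripts and the compared groups only (0.54 to 0.83 over all alternatives). Without WT library 1 of 18 h, or without labelled-KO library 2 of 0 h, 6 members passed, and without the highest stromal library of each group 4. Cell cycle genes had 12 of 20 interactions called higher in labelled KO at 18 h, and 1, Mcm2 (-0.96), called lower. The lower level of cell cycle genes in labelled KO at 0 h enters these interactions. The part of cell cycle genes in the members' interactions was not tested.

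Genes of the same machinery outside the 45 were read from lists fixed by function. Of 14 further integrin chains, 6 were tested, and in WT at 4 h 2 rose and 1 fell: Itgb8, the chain that activates latent TGF-beta, went from 0.03 to 0.11 CPM to 5.59 to 34.4 CPM (log2 fold change 8.50), and Itgb3, which pairs with Itgav, from 5.95 to 9.47 CPM to 1.35 to 2.62 CPM (-1.91). At 18 h the counts were 1 and 2. The shares of all genes called were 78.1% at 4 h and 71.1% at 18 h. Of 40 further adaptors and kinases, 35 were tested; 14 rose and 11 fell at 4 h (71.4% called), and 14 and 12 at 18 h (74.3%), shares near those of all genes. Among those at a mean of at least 5 CPM, the kinase Lyn (2.27) and the receptor phosphatase Ptprj (1.94) were among the rises at 4 h, and the migfilin gene Fblim1 (-3.92), the vinexin gene Sorbs3 (-3.03) and the Rac exchange factor Arhgef6 (-1.87) led the falls.

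Of 28 podosome core and actin assembly genes, all were tested; 15 rose and 8 fell at 4 h (82.1% called), and 16 and 5 at 18 h (75.0%), also near those of all genes. The membrane protease Mmp14 (4.61), the Rac-binding Swap70 (3.12) and the actin elongation factor Vasp (2.90) rose most at 4 h. The falls were led by Myo1f, a myosin of leukocytes (-1.82), and by the WASP partners Wipf1 (-1.46) and Was (-0.85). Of 20 integrin ligands, 16 were tested, with 5 rises and 2 falls at 4 h (43.8% called) and 6 and 5 at 18 h (68.8%). Vcam1 (6.22), the counter-receptor of Itga4, Icam1 (5.52), that of Itgal and Itgam, and the junctional protein F11r (2.27) rose most, and the falls were Emilin1 (-2.50) and the thrombospondin Thbs1 (-1.24). Between the genotypes at 18 h, 15 of the 35 adaptors and kinases were higher and 3 lower (51.4% called), 7 of the 28 podosome genes higher and 3 lower (35.7%) and 10 of the 16 ligands higher and 1 lower (68.8%), beside 32.2% of all genes. Of the further integrin chains, Itgb3 (1.40) and Itga11 (5.27) were called higher and Itga8 (-4.71) lower at 18 h. Itgb3 was also called in the interaction at 18 h (1.79). The higher ligands include Fn1, Tnc and Postn, which stromal cells make, and also Vcam1 (1.60), Thbs1 (1.23) and Spp1 (0.72). Postn is itself on the list of stromal markers. The part of stromal cells in these differences was not tested.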

How the data were processed

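RNA-seq of 21 libraries was read from one deposited table. Per the submitters' processing notes, the authors used CASAVA 1.8.2, HISAT2 2.1.0 and the mm10 genome; the counting tool and its use of strand were not given in the sources used here. The deposited values are estimated counts per transcript in steps of 0.5, which were rounded to whole numbers. Of 42361 transcripts, 42203 were named from RefSeq and 65 from the annotation release GENCODE M21; 93 unnamed ones, 0.232% to 2.229% of counts, were left out. Each gene was represented by its transcript with the highest mean count.

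The main test was edgeR 4.0.16 (R 4.3.3): TMM factors, filterByExpr, 6 group means over all 21 libraries, the quasi-likelihood test, and Benjamini-Hochberg adjustment over 12529 genes, called at an adjusted p under 0.05. It was tested on simulated data with known changes in a small share of genes. That simulation does not check the scaling where most genes change, as in the LPS comparisons. CPM used the effective library size. The SE of a log2 fold change was its absolute value divided by the square root of the test's F statistic. Alternatives were DESeq2 1.42.0, limma-voom (limma 3.58.1), other scaling factors and low-count filters, summed transcripts, the compared groups only, a stromal covariate (mean level of the stromal markers), removal of the highest stromal library of each group, a replicate block and removal of each library in turn.

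Members with values in every library were, by rule, up to 6 called rises and 6 called falls of largest size at a mean of at least 5 CPM in each LPS comparison of WT, and the members called between genotypes; others named were chosen after their values were seen. The members, lists and tests were chosen with earlier results of these data known. Same-numbered WT libraries at 0 h and 4 h deviated together (correlations 0.228 to 0.316 in 4 pairs), whereas in the other pairs of groups at least 1 correlation was 0.1 or lower. Among those, labelled-KO libraries 2, 3 and 4 had correlations of 0.403, 0.0956 and 0.502 between 4 h and 18 h.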

Additional observations from a re-analysis of the deposited data

Results flagged for a closer look

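In 7 of 135 combinations of a member and a WT group, 1 library lay far from the other 3, and chance gives about 1 in 20. WT library 1 at 4 h had 500.4 CPM of Itgal where the others had 192.1 to 201.5 CPM. It had 988.7 CPM of Zyx, the others 469.5 to 508.6 CPM, and 125.9 CPM of Fermt3, the others 65.69 to 75.57 CPM. WT library 1 at 18 h had 259.5 CPM of Tns3 against 304.9 to 310.4 CPM, and 154.0 CPM of Pstpip1 against 160.3 to 161.1 CPM. WT library 2 at 18 h had 180.0 CPM of Crk against 200.9 to 203.3 CPM. WT library 2 at 0 h, which had the highest stromal sum of its group, had 1.627 CPM of Parva against 0 to 0.1596 CPM.

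The response to LPS at 18 h differed between the genotypes for 10 members by edgeR's interaction test. The labelled-KO response was the higher one for Itgav (1.00 on the log2 scale), Tes (0.94), Nedd9 (0.82), Zyx (0.78), Lims1 (0.56), Ptk2b (0.47) and Lasp1 (0.38), and the lower one for Itga6 (-0.73), Parvg (-0.51) and Itgb5 (-0.44). The calls of Itga6, Itgav, Lims1 and Tes held under all 25 alternatives, and the other calls did not.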

How the results depend on the processing

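For the 6 comparisons of LPS times and for the genotypes at 18 h, the count of called members stayed within 1.5 times the main count under every alternative; leaving out 1 library gave 34 to 37 (WT, 4 h against 0 h), 37 to 41 (WT, 18 h against 0 h), 39 to 41 (WT, 18 h against 4 h), 31 to 35, 37 to 39 and 33 to 35 (the same in labelled KO) and 10 to 13 (genotypes at 18 h). The genotype count at 0 h, 2, was 0 with the replicate block (Itgav and Tes both lost) and 1 to 2 with 1 library left out. At 4 h the genotype count, 8, was 4 with limma-voom, 3 with the stromal covariate, 0 without the highest stromal libraries, 0 on the compared groups only, 3 with the replicate block and 1 to 7 with 1 library left out. The interaction count at 4 h, 0, was 1 with DESeq2, 1 with the replicate block (Itgav, 0.75) and 0 to 1 with 1 library left out, and at 18 h, 10, it was 4 without the highest stromal libraries and 6 to 10 with 1 library left out. The difference of Parva at 18 h reversed to -0.0343 with the stromal covariate. Of 976 alternative values of 50 results on single members, 880 kept direction and call, 95 kept direction and lost the call, and 1 reversed; the cause was not tested. The replicate number is not shown to mark one mouse, and beyond the calls named here and in the report the block moved no count by over 1.5 times.
Depth limits members with few counts, such as Parva, Pdlim7, Itgb7 and Bcar1. Overlapping genes (Itga4 with Cerkl, Fermt3 with Trpt1, Vcl with Ap3m1, Zyx with Epha1, Lpxn with Zfp91, Tns1 with Rufy4, Ilk with Rrp8 and Taf10, Parva with Parvaos) could share reads if strand was not used.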
